A study of Mus musculus with 8 samples.

Results

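The miR-181 family was described in small RNA libraries of CD8+ T cells, which kill virus-infected cells, enriched with CD8a magnetic beads from spleens of C57BL/6 mice, an inbred laboratory strain. The groups were neonatal mice aged 5 to 7 days (n = 4 libraries) and adult mice aged 12 weeks (n = 4 libraries), with no treatment or engineered allele named in the labels for either. The 6 members were the rows named mmu-miR-181a-5p, mmu-miR-181b-5p, mmu-miR-181c-5p, mmu-miR-181d-5p, mmu-miR-181c-3p and mmu-miR-181d-3p (mmu, for mouse, is left out where unneeded), out of 1978 mature miRNAs in the table, and values of a miRNA with more than 1 precursor were summed. All 6 passed the filter on low counts, as did 375 miRNAs in all. The table also held 4 further strands of the same hairpins (miR-181a-1-3p, miR-181a-2-3p, miR-181b-1-3p and miR-181b-2-3p), which were not chosen as members and are given here because they tell the hairpins of the family apart. Whether each library is 1 animal or a pool is not stated in the labels, so the spread that p-values measure is that between libraries and may be technical.

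A microRNA is cut from a hairpin transcript, and either side of the hairpin, the 5p or the 3p strand, can be loaded into an Argonaute protein to repress messenger RNAs that pair with its seed, bases 2 to 8. In mice miR-181a is abundant in immature thymocytes, where it is known to raise the sensitivity of the T cell receptor by repressing phosphatases that dampen its signal, and its level is known to fall as thymocytes mature into peripheral T cells. miR-181b is made beside miR-181a from both of that miRNA's hairpin clusters, and miR-181c and miR-181d form a further cluster.

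The mature sequences are from RefSeq (GRCm38.p6, the assembly also called mm10), and all 10 strands were matched by name. They are shown because the family members differ by a few bases, which decides which reads can be told apart, and capitals mark the seed. The 4 strands of the 5p side share 1 seed.
miR-181a-5p: aACAUUCAacgcugucggugagu
miR-181b-5p: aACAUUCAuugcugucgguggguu
miR-181c-5p: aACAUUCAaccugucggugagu
miR-181d-5p: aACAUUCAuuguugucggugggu
The 3p strands have other seeds, of which miR-181a-1-3p and miR-181c-3p share one and both miR-181b 3p strands another.
miR-181a-1-3p: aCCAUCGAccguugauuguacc
miR-181a-2-3p: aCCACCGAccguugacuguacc
miR-181c-3p: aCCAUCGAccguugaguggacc
miR-181d-3p: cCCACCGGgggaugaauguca
miR-181b-1-3p: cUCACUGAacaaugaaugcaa
miR-181b-2-3p: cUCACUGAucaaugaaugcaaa

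By sequence the 5p strands fall into 2 pairs, with positions counted from 1 at the 5′ end and the first-named miRNA's base given first. miR-181c-5p is miR-181a-5p without its G11, and miR-181d-5p differs from miR-181b-5p by C12U and lacks the base U24. Between the pairs, miR-181b-5p differs from miR-181a-5p by A9U, C10U and A21G, with 1 base more at its end. The 3p strands of the miR-181a hairpins differ by U5C and U16C, and miR-181c-3p begins with the same 15 bases as miR-181a-1-3p.

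The genome places these pairs the other way round, since each cluster holds 1 hairpin of either sequence pair (coordinates are of GRCm38). Mir181a-1 (chr1:137966455-137966541) and Mir181b-1 (chr1:137966639-137966718) lie 97 bases apart on the plus strand, in an exon of the noncoding gene A430106G13Rik and an intron of Gm4258. Mir181a-2 (chr2:38852735-38852810) and Mir181b-2 (chr2:38853830-38853918) lie 1019 bases apart on the plus strand, opposite to the protein-coding gene Nr6a1 and within its intron. Mir181d (chr8:84178716-84178787) and Mir181c (chr8:84178873-84178961) lie 85 bases apart on the minus strand in an intron of Nanos3, in the same orientation. The hairpins that give miR-181a-5p carry the same 5p strand and different 3p strands, as the RefSeq hairpins show with both mature strands in capitals.
Mir181a-1: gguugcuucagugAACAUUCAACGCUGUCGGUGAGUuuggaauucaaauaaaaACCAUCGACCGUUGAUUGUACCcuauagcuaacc
Mir181a-2: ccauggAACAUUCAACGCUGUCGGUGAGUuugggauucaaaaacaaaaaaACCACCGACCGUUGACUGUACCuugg

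The deposited values behave accordingly. The miR-181a-5p rows of Mir181a-1 and Mir181a-2 differed by at most 0.0411% in any library, so these rows carry no information on which cluster the miRNA came from. The miR-181b-5p row of Mir181b-2 was 1.05 to 1.10 times that of Mir181b-1. Of the 96 family values above 0, 45 were not whole numbers (within 0.001). Over the table, within 0.02, 14.3% of the values of miRNAs with several precursors were whole in single rows and 51.6% after summing over precursors, against 85.4% for miRNAs with 1 precursor. The miR-181b-5p rows summed to a multiple of 0.5 (within 0.025) in 1 of the 8 libraries, and together with miR-181d-5p in 8 of 8, as when a read that matches several rows is divided among them. No label states the rule of division, and the levels, ranks and shares of miR-181a-5p and miR-181b-5p below hold for rows that are parts of 1 sum. Had reads been counted in full on each row, they would be too high. Values of miR-181d-5p and miR-181b-5p may also hold parts of the same reads, and how many was not tested. The same holds for 3p strands, some of whose values ended in 0.5.

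Library totals ran from 1454421 to 2416060 counts in neonatal mice and from 1281031 to 2606630 counts in adult mice. Levels below are CPM, counts scaled to an equal library total and corrected by TMM (trimmed mean of M values, a factor that aligns the bulk of miRNAs across libraries), and a log2 fold change, given with its standard error (SE), sets neonatal over adult cells. TMM factors of 1.16 to 1.30 in neonatal libraries stood against 0.788 to 0.812 in adult ones, and scaling by library totals alone moved the median fold change of all tested miRNAs up by 0.63, so each fold change is relative to that choice. Because adapter ligation favours some sequences, levels of different miRNAs are read counts and not molar amounts. At an adjusted p under 0.05 (Benjamini-Hochberg), 63.2% of the tested miRNAs passed the quasi-likelihood test of edgeR, 29.1% as higher and 34.1% as lower in neonatal libraries. In such bulk samples, a difference in the cells present and a difference in RNA per cell cannot be told apart.

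Neonatal CD8+ T cells held more miR-181b-5p and miR-181d-5p than adult ones, by 2.48 and 2.47 times, and more of both 3p members, miR-181c-3p and miR-181d-3p. As miR-181b-5p and miR-181d-5p may share reads, their calls are not independent. miR-181a-5p, the most abundant member, and miR-181c-5p, the least abundant of the 5p strands, did not pass the test on the TMM scale. Of the 6 members 4 were therefore called higher and none lower, beside 29.1% called higher among all tested miRNAs, and their median log2 fold change was 1.07 beside -0.05 for all tested miRNAs. miR-181d-3p passed the count filter only through the neonatal libraries, where it is high. Of the 5 members that also met it in all adult libraries, 3 were called higher, and the median log2 fold change of these 5 was 0.84. With library totals all 6 were called higher, where 49.6% of all tested miRNAs were. With RLE scaling (DESeq2's median ratio, in edgeR) and with DESeq2 itself 5 were, beside 32.8% and 33.6% of all. The count stayed at 4 with the replicate number as a block (33.3% of all higher), with an offset for GC content (34.1%) and without a filter (15.8% of 1025 miRNAs).

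mmu-miR-181a-5p stood at 8749, 11132, 10333 and 11958 CPM in neonatal libraries 1 to 4, against 8324, 9940, 9194 and 8991 CPM in adult libraries 1 to 4. The groups overlapped, since neonatal library 1 lay below 3 of the adult libraries, and miR-181a-5p ranked 18th in neonatal and 24th in adult cells among all miRNAs. Its log2 fold change was 0.21 ± 0.14 (SE; edgeR's adjusted p = 0.193), and it ran from 0.13 without adult library 1 to 0.33 without neonatal library 1, with edgeR's adjusted p from 0.0565 to 0.429 when any 1 library was left out. It passed as higher with RLE scaling (0.32, edgeR's adjusted p = 0.0493), with DESeq2 (0.32, adjusted p = 0.029) and with library totals (0.84, edgeR's adjusted p = 5.57e-05). By edgeR's adjusted p it also passed with the GC offset and replicate block (0.22, 0.0365), with rows kept per precursor (0.42, 0.0107) and in libraries 1 and 3 alone (0.26, 0.0410). Its call therefore depends on the scaling and on other choices of processing.

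mmu-miR-181b-5p stood at 1996, 2431, 2446 and 2505 CPM in neonatal libraries, against 848, 987, 948 and 1003 CPM in adult libraries. Every neonatal library was above every adult one, as for 26.4% of all tested miRNAs. The log2 fold change was 1.31 ± 0.14 (edgeR's adjusted p = 5.17e-06), and miR-181b-5p remained called under all 22 alternatives, at values of 1.23 to 1.94. It ranked 46th in neonatal cells and 79th in adult cells.

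mmu-miR-181d-5p stood at 1377, 1754, 1485 and 2144 CPM in neonatal libraries, against 510, 854, 551 and 822 CPM in adult libraries, again with no overlap. Libraries 2 and 4 were above libraries 1 and 3 in both age groups. The log2 fold change was 1.30 ± 0.21 (edgeR's adjusted p = 0.00015), and it was 1.56 in libraries 1 and 3 alone and 1.18 in libraries 2 and 4 alone, a split that also separates the libraries on the second principal component of all tested miRNAs. Within either age group the ranges of miR-181d-5p and miR-181b-5p overlapped, while in each library miR-181d-5p was below the summed miR-181b-5p rows and above either row alone.

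mmu-miR-181c-5p stood at 209, 187, 140 and 293 CPM in neonatal libraries, against 191, 218, 225 and 211 CPM in adult libraries. The adult libraries lay inside the neonatal range. Its log2 fold change of -0.03 ± 0.20 did not pass (edgeR's adjusted p = 0.908), and it was above 0 under 16 of the 22 alternatives, reaching 0.59 with library totals, where it was called higher (edgeR's adjusted p = 0.0125).

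**Figure D1:**
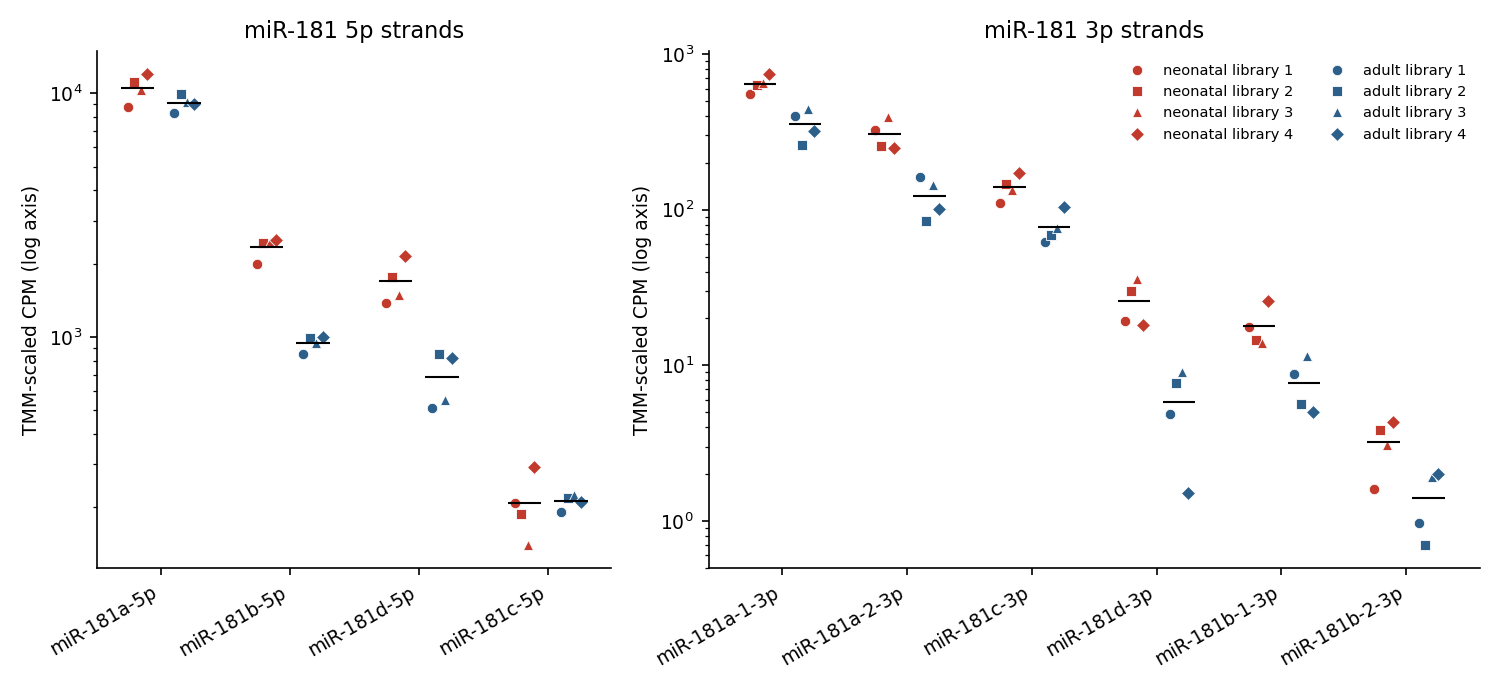
TMM-scaled CPM (log axis) of the 5p strands (left) and 3p strands (right) in each neonatal (red) and adult (blue) library, with the mean of each group as a line. The groups overlap for miR-181a-5p, miR-181c-5p and miR-181b-2-3p. They are apart, with neonatal higher, for the other 7 strands, as for 26.4% of all tested miRNAs. Of these 7, miR-181d-3p and miR-181b-1-3p passed the count filter only through the neonatal libraries.

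The 3p strands of the chromosome 8 hairpins are usually regarded as the passenger side, the strand degraded more often than loaded. mmu-miR-181c-3p stood at 110, 147, 133 and 171 CPM in neonatal libraries, against 62.2, 68.6, 76.1 and 104 CPM in adult libraries. The groups did not overlap, and the log2 fold change was 0.84 ± 0.21 (edgeR's adjusted p = 0.00306). mmu-miR-181d-3p was scarce, with 36, 79, 82 and 51 counts in neonatal libraries, against 5, 11, 19 and 3 counts in adult libraries.

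That is 19.2, 30.1, 35.7 and 18.2 CPM in neonatal libraries, against 4.86, 7.70, 9.03 and 1.51 CPM in adult libraries. miR-181d-3p had the largest log2 fold change of the family, 2.15 ± 0.42 (edgeR's adjusted p = 0.000671). With adult library 4 at the 3 counts that a count of 0 still allows, the size of this rise is imprecise, and it ran from 1.83 to 2.56 when any 1 library was left out.

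Of the strands that are not members, miR-181a-1-3p and miR-181a-2-3p met the count filter in all neonatal and adult libraries. They were called higher in neonatal cells too, beside 29.1% of all tested miRNAs. So was miR-181b-1-3p, which passed that filter only through the neonatal libraries. miR-181a-1-3p stood at 558, 633, 654 and 742 CPM in neonatal libraries, against 398, 259, 444 and 322 CPM in adult libraries, a log2 fold change of 0.86 ± 0.18 (edgeR's adjusted p = 0.00104). miR-181a-2-3p stood at 326, 257, 392 and 250 CPM in neonatal libraries, against 161, 84.7, 144 and 100 CPM in adult libraries, a log2 fold change of 1.32 ± 0.23 (edgeR's adjusted p = 0.000258). Neither overlapped between groups, so the strands that identify the chromosome 1 and chromosome 2 clusters were both higher in neonatal cells.

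miR-181b-1-3p, which passed the count filter only through the neonatal libraries, held 32 to 72 counts in neonatal and 8 to 24 counts in adult libraries, and its log2 fold change was 1.22 ± 0.33 (edgeR's adjusted p = 0.00563). In libraries 1 and 3 alone this call was lost (0.73, edgeR's adjusted p = 0.115), and with the GC offset and the block the value was 1.84. miR-181b-2-3p, at 3 to 12 counts in neonatal and 1 to 4 counts in adult libraries, did not pass the count filter, and without that filter its log2 fold change was 1.17 (edgeR's adjusted p = 0.226).

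**Figure D2:**
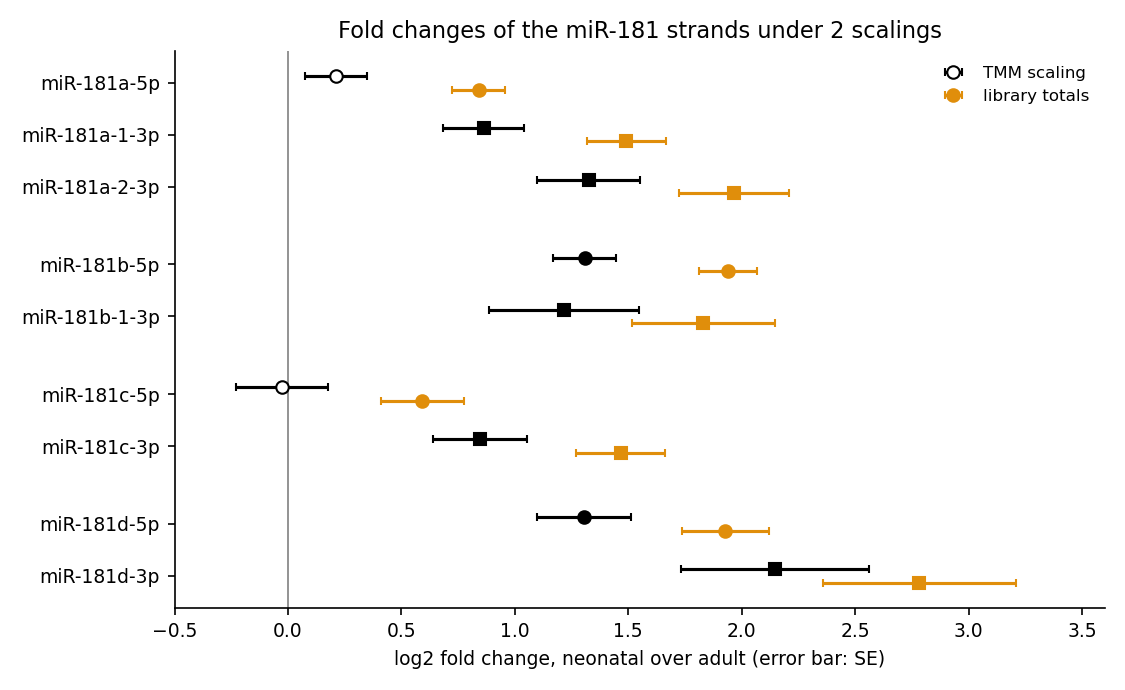
Log2 fold change, neonatal over adult, of the 9 tested strands with its SE, under TMM scaling (black) and library totals (orange). Filled symbols passed edgeR's test at an adjusted p under 0.05, circles are 5p and squares are 3p strands. Under TMM miR-181a-5p and miR-181c-5p lie near 0 and the other strands between 0.84 and 2.15.

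As a share of all counts, the 6 members took 1.61%, 1.94%, 1.89% and 1.98% in neonatal libraries, against 0.799%, 0.951%, 0.888% and 0.904% in adult libraries. Such a share is on the scale of library totals, without TMM. On that scale 49.6% of all tested miRNAs were called higher and the median log2 fold change moved up by 0.63, so the share carries that shift. The means were 1.85% ± 0.170 in neonatal and 0.886% ± 0.0637 in adult libraries (SD, n = 4 each). An exact two-sided permutation test gave p = 0.029, the smallest possible with 4 libraries in each group, and pairing libraries by number, with signs flipped within pairs, gave an exact p = 0.125, the smallest that 4 pairs allow. The few most abundant miRNAs take much of a library. Without the 10 most abundant other miRNAs the share was 4.85% ± 0.389 in neonatal and 2.44% ± 0.151 in adult libraries.

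The make-up of the strands with the shared seed also differed by age. miR-181a-5p made up 70.8% to 71.8% of the counts of the 4 5p strands in neonatal and 81.5% to 84.3% in adult libraries. miR-181b-5p made up 15.9% ± 0.904 in neonatal and 8.65% ± 0.357 in adult libraries, and miR-181d-5p 11.4% ± 0.982 in neonatal and 6.20% ± 1.27 in adult libraries. miR-181c-5p made up 1.40% ± 0.373 in neonatal and 1.93% ± 0.0985 in adult libraries. The groups did not overlap for any of these 4 percentages, which are not independent since they add up to the whole (exact permutation test, two-sided, p = 0.029 each, n = 4 each). Summed, the 4 strands reached 14785 ± 1928 CPM in neonatal libraries, against 10954 ± 870 CPM in adult ones, without overlap (exact permutation test, two-sided, p = 0.029, n = 4 each).

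**Figure D3:**
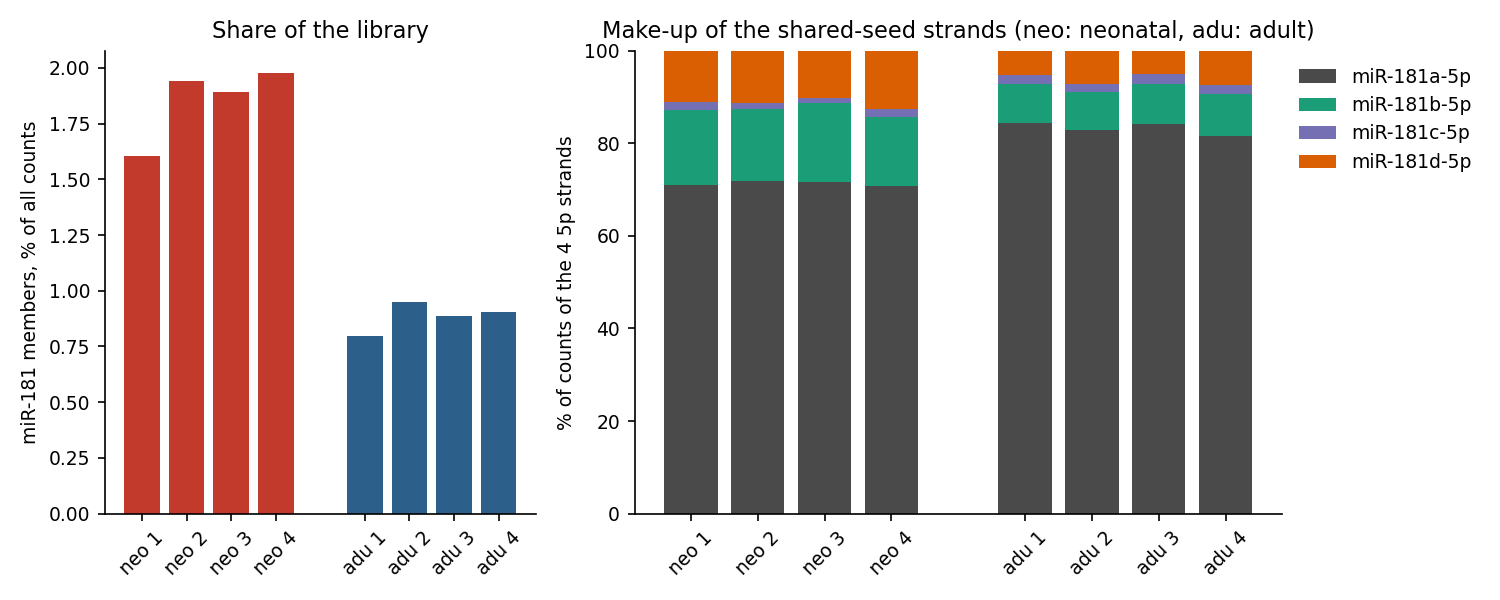
Left, percent of all counts taken by the 6 members in each library, neonatal (red) and adult (blue). Right, percent of the counts of the 4 5p strands taken by each of them. Neonatal libraries have a larger total share and smaller miR-181a-5p fractions, 70.8% to 71.8%, against 81.5% to 84.3% in adult libraries.

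Ratios between strands of 1 library do not depend on scaling and were used to ask which members moved together. Within the clusters the ratio of neighbours was higher in every neonatal library than in any adult one, where the counts of miR-181a-5p and miR-181b-5p each sum 2 clusters. miR-181b-5p had 0.228, 0.218, 0.237 and 0.210 counts per count of miR-181a-5p in neonatal libraries, against 0.102, 0.0993, 0.103 and 0.112 in adult libraries. The groups were well apart and hardly varied within themselves, and the ratio was 2.15-fold higher in neonatal cells (log2 difference of 1.10). miR-181d-5p had 6.58, 9.36, 10.6 and 7.31 counts per count of miR-181c-5p in neonatal libraries, against 2.66, 3.91, 2.45 and 3.89 in adult libraries, a log2 difference of 1.40. As miR-181d-5p and miR-181b-5p may share reads, neither ratio is strictly of 1 cluster, and the part of such reads was not tested.

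Between the clusters, the ratios of strands alike in sequence overlapped between the ages. The log2 ratio of miR-181d-5p to miR-181b-5p was -0.49 ± 0.20 in neonatal and -0.50 ± 0.30 in adult libraries (SD, n = 4 each; exact permutation p = 0.943). That of miR-181c-5p to miR-181a-5p was -5.71 ± 0.41 in neonatal and -5.43 ± 0.06 in adult libraries (SD, n = 4 each; exact permutation p = 0.400). A p that misses the threshold does not show that these ratios were equal, and neonatal libraries 2 and 3 lay below every adult library in the second ratio. The strands compared here are close in sequence, and the part of shared reads in these ratios was not tested.

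For the 2 ratios between neighbours the exact two-sided permutation p was 0.029 each. Adjusted by Benjamini-Hochberg over the 6 ratios compared it was 0.0571 (0.0643 over all 9 ratios computed, 3 of them added after seeing the data), above 0.05, and the sign-flip test within pairs gave an exact p of 0.125 for each, which a design of this size cannot go below. The difference for miR-181b-5p over miR-181a-5p was 1.18 in libraries 1 and 3 alone and 1.02 in libraries 2 and 4 alone, and that for miR-181d-5p over miR-181c-5p was 1.71 in libraries 1 and 3 and 1.08 in libraries 2 and 4.

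**Figure D4:**
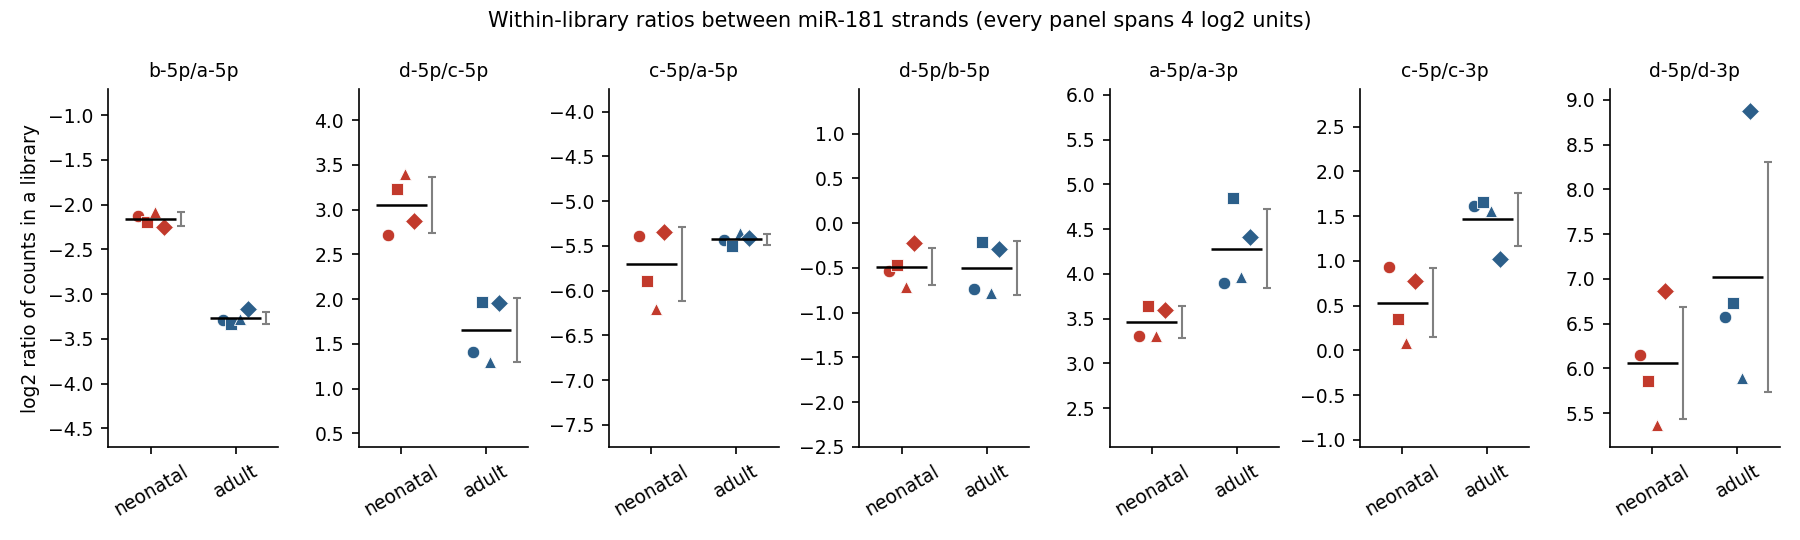
Log2 ratio of counts between miR-181 strands within each library, neonatal (red) left of adult (blue), with the group mean (line) and SD (bar). Marker shapes are library numbers 1 to 4, a-3p is the sum of miR-181a-1-3p and miR-181a-2-3p, and all panels span the same number of log2 units. Groups do not overlap for b-5p/a-5p, d-5p/c-5p, a-5p/a-3p and c-5p/c-3p.

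The balance of the arms of a hairpin was compared in the same way, over the 123 hairpins with both arms tested. In neonatal cells the 5p strand was lower relative to its 3p strand for Mir181c, Mir181a-1 and Mir181a-2. miR-181c-5p had 1.91, 1.27, 1.06 and 1.71 counts per count of miR-181c-3p in neonatal libraries, against 3.06, 3.16, 2.95 and 2.03 in adult libraries. The neonatal minus adult log2 difference was -0.93 ± 0.24 for Mir181c (SE; limma's adjusted p = 0.0113 over the 123 hairpins), -0.68 ± 0.21 for Mir181a-1 (adjusted p = 0.0250) and -1.14 ± 0.31 for Mir181a-2 (adjusted p = 0.0138), where both miR-181a hairpins are set over the same 5p reads. By the exact permutation test over libraries the Mir181c ratio had p = 0.029, and 0.0571 adjusted over the 6 ratios or 0.0643 over all 9 (n = 4 each).

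The Mir181b-1 difference did not pass (0.11 ± 0.32, limma's adjusted p = 0.809). Mir181d stood at -0.96 ± 0.60 (limma's adjusted p = 0.241), with adult library 4 far above the others at 468 counts of miR-181d-5p per count of miR-181d-3p after 0.5 was added to each, and it passed as lower when library numbers entered limma's fit as a block (limma's adjusted p = 0.0248). That value rests on few adult counts of miR-181d-3p, since it was -0.37 when 5 was added to counts in place of 0.5 and -0.34 without adult library 4. Of the 123 hairpins 28.5% passed limma's test as lower and 17.9% as higher, and the median difference was -0.22. The groups did not overlap, with neonatal lower, for 26.8% of the hairpins, and with neonatal higher for 14.6%. Several hairpins carry the same pair of arms, such as those of miR-467a and miR-466c. Counting each of the 102 pairs once, limma called 23.5% lower and 20.6% higher, the groups did not overlap for 21.6% with neonatal lower and 17.6% with neonatal higher, and the median was -0.20. The calls of the miR-181 hairpins held in that fit, with limma's adjusted p of 0.0141 for Mir181c, 0.0333 for Mir181a-1 and 0.0172 for Mir181a-2. Both limma fits on arm ratios were chosen after seeing the data.

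The 2 clusters of miR-181a can be compared through their 3p strands alone, as far as reads were not divided between these. In adult library 1 the rows held 409.5 counts of miR-181a-1-3p and 166.5 of miR-181a-2-3p, and how many reads they share was not tested. miR-181a-1-3p had 1.72, 2.46, 1.67 and 2.97 counts per count of miR-181a-2-3p in neonatal libraries, against 2.46, 3.05, 3.09 and 3.20 in adult libraries. The groups overlapped, with a log2 difference of -0.46 and p = 0.0857 (n = 4 each) by the two-sided exact permutation test. In neonatal libraries 1 and 3 the ratio was the lowest, and the difference was -0.70 in libraries 1 and 3 alone and -0.21 in libraries 2 and 4 alone.

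**Figure D5:**
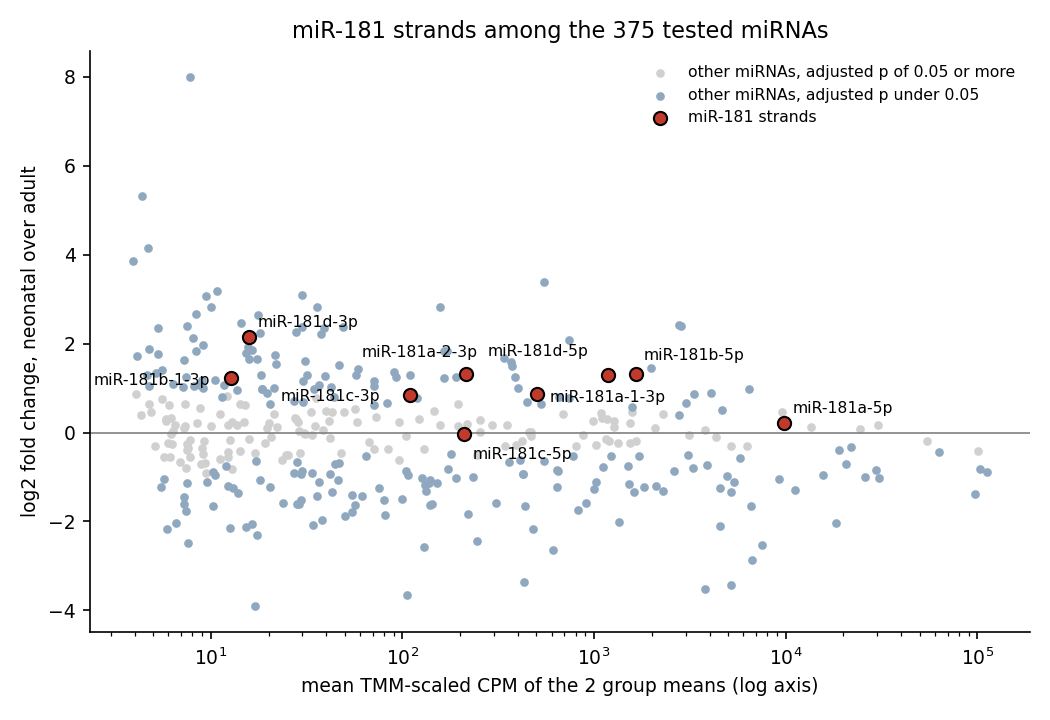
Log2 fold change, neonatal over adult, against the mean of the group means in TMM-scaled CPM (log axis) for the 375 tested miRNAs, with miR-181 strands in red. The miR-181 strands span levels from about 10 to 10000 CPM, and the lowest of them, miR-181c-5p, lies at -0.03.

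Likeness to other miRNAs was described by Pearson's r of log2 CPM over the 8 libraries, with 161 miRNAs that reached a mean of 100 CPM in neonatal or adult cells as candidates. The points share libraries and the age difference, which by itself gives a high r, so no p is attached. miR-181b-5p was most like miR-183-5p (r = 0.989) and miR-296-3p (r = 0.988), at log2 fold changes of 1.60 and 1.23. miR-181d-5p was most like miR-363-3p (r = 0.984) and miR-126a-3p (r = 0.975), an endothelial miRNA. miR-181a-5p was most like miR-652-3p (r = 0.929) and miR-98-5p (r = 0.923), and miR-181c-5p, the least so, like miR-107-3p (r = 0.711) and miR-20a-5p (r = 0.664).

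Of 24 other miRNAs listed for known roles in T cell development and receptor signalling, 22 were tested. Of these 13 were lower and 6 higher in neonatal libraries, beside 34.1% and 29.1% of all tested miRNAs. Their median log2 fold change was -0.88, beside -0.05 for all tested miRNAs. With library totals 9 were lower and 7 higher, beside 68 and 186 of all 375 tested miRNAs. The median of the list was then -0.25, beside 0.58 for all. miR-146a-5p, which dampens NF-kB signalling by repressing its adaptors, had the smallest p of the list and averaged 1600 ± 237 CPM (SD) in neonatal libraries, against 11648 ± 506 CPM in adult ones. miR-92a-3p, a member of the proliferation-driving miR-17 cluster and the most abundant on the list by mean level over all libraries although not in adult ones, where miR-150-5p averaged 140507 CPM, averaged 86242 ± 17351 CPM in neonatal libraries, against 114584 ± 28600 CPM in adult ones, a change of -0.41 ± 0.20 that did not pass (edgeR's adjusted p = 0.0853).

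Magnetic enrichment leaves some other cells, and several but not all miRNAs listed for such cells were higher in neonatal libraries. The 5 erythroid miRNAs summed to 308 to 775 CPM in neonatal and 120 to 252 CPM in adult libraries, and all 3 tested were higher, beside 29.1% of all tested miRNAs. The 2 endothelial miRNAs summed to 125 to 160 CPM in neonatal and 46.6 to 77.0 CPM in adult libraries. The 5 stromal ones summed to 114 to 169 CPM in neonatal and 36.1 to 83.3 CPM in adult libraries. Of these, 2 of 2 and 3 of 3 tested miRNAs were higher, again beside 29.1% of all tested miRNAs. The endothelial miR-126a-5p, at a mean of 2.33 CPM in adult libraries, passed the count filter only through the neonatal libraries. The stromal miR-145a-5p and miR-214-3p were not tested, and their groups overlapped. The liver miRNA miR-122-5p was also higher, since neonatal libraries held 745 to 1591 CPM, against 245 to 390 CPM in adult ones.

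The 2 myeloid miRNAs summed to 3.49 to 8.54 CPM in neonatal and 2.85 to 9.10 CPM in adult libraries, too few to test, and of the 3 listed neural miRNAs miR-124-3p had at most 1 count in any library. miR-9-5p, the other neural marker, was higher, at 6.38 ± 0.528 CPM in neonatal libraries, against 3.14 ± 0.681 CPM in adult ones (edgeR's adjusted p = 0.0161). At 4 to 18 counts over all libraries, miR-9-5p passed the count filter only through the neonatal ones. miR-128-3p, the bulk of the neural list and also on the T cell list, was higher, with 8516 ± 838 CPM in neonatal libraries, against 4311 ± 408 CPM in adult ones. For lymphocytes, miR-150-5p, miR-142a-3p and miR-142a-5p were listed, which are also on the T cell list. They summed to 59036 to 61578 CPM in neonatal and 130096 to 194967 CPM in adult libraries. Whether they mark lymphocytes alone was not tested. All 3 were called lower in neonatal libraries, beside 34.1% of all tested miRNAs. With library totals 2 of 3 were, beside 68 of 375. No marker on these lists was at 0 in all libraries. The part of other cells in the rise of the miR-181 strands was not tested, and the CD8+ identity itself cannot be checked from miRNAs.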

How the data were processed

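Per the labels' protocols, total RNA of bead-enriched spleen cells was extracted with Trizol and small RNA libraries were made with the NEBNext kit, selected for short inserts. The authors deposited 1 table of estimated counts, not normalized, for each mature miRNA and precursor (2128 rows). The genome build was mm10, per the submitters' processing notes, and no aligner, counter or miRNA annotation is named in the labels. Counts were summed over precursors and rounded. All columns of values matched a library.

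edgeR 4.0.16 (R 4.3.3) was run on all miRNAs past filterByExpr (minimum count 10, total 15) with TMM scaling, robust quasi-likelihood fits, age as the only term and Benjamini-Hochberg adjustment over 375 miRNAs. The SE was derived from the fold change and F. Shares and log2 ratios (0.5 added to counts) were compared by exact permutation tests, and arm ratios by limma 3.58.1. The tests were checked on simulated data. Alternatives were DESeq2 1.42.0, limma-voom, other scalings and filters, a replicate block, an offset for GC content of the mature sequence (found for 83.7% of tested miRNAs) and leaving out libraries.

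No 2 libraries of a group were copies (chi-square over degrees of freedom, 15.7 to 362). Counts of 1281031 to 2606630 per library give a floor of 3 counts, or 1.07 to 2.91 CPM, which covers counting error alone. The labels number replicates 1 to 4 in both groups. Deviations from group means correlated between same-numbered libraries at r = 0.256 to 0.415. The numbers served as a block or as pairs in alternatives only, not in the main fit. Libraries of other numbers were as close, since neonatal 4 and adult 2 reached r = 0.482 and neonatal 3 and adult 1 reached r = 0.397. The check therefore does not single out pairing by number. Named were all members, the other miR-181 strands, the 2 most alike miRNAs of each 5p member, and from the T cell list the most abundant miRNA and that of smallest p. That list held miR-150-5p, miR-155-5p, miR-146a-5p, miR-17-5p, miR-18a-5p, miR-19a-3p, miR-19b-3p, miR-20a-5p, miR-92a-3p, miR-142a-3p, miR-142a-5p, miR-29a-3p, miR-29b-3p, miR-125a-5p, miR-125b-5p, miR-128-3p, miR-31-5p, miR-27a-3p, miR-24-3p, miR-214-3p, miR-342-3p, miR-205-5p, miR-21a-5p and miR-182-5p. Others named from the marker lists were chosen after their values were seen. The members and lists were chosen with earlier results of these data known.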

Additional observations from a re-analysis of the deposited data

Results flagged for a closer look

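Among 40 groups of 4 values of miR-181 levels, shares and ratios, 2 held a library far from the other 3 by Dixon's criterion at the 95% level, which chance alone meets in about 1 in 20 groups. Neonatal library 1 had 1996 CPM of miR-181b-5p, below the 2431 to 2505 CPM of the other neonatal libraries, and without it the fold change was still called. Adult library 4 had a log2 ratio of miR-181c-5p to miR-181c-3p of 1.02, below the 1.56 to 1.66 of the other adult libraries and closer to the neonatal ones.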

How the results depend on the processing

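The count of 4 members called higher was 4 to 6 over the 22 alternatives and none was called lower. It was 5 with RLE scaling, DESeq2, the GC offset with the replicate block, rows kept per precursor and libraries 1 and 3 alone, where miR-181a-5p was added, and 6 with library totals, with or without the block. Among all tested, 123, 126 and 141 of 375 miRNAs, 146 of 433 rows and 126 of 368 miRNAs were higher in the first 5 of these settings, in that order. With library totals 186 of 375 were higher, and 205 with the block. Leaving out any 1 library gave 4. The replicate block alone changed no call of a miR-181 strand in edgeR. The count over all miRNAs, 237, ran from 213 to 308, and with library totals 186 were higher and 68 lower in place of 109 and 128. miR-181c-5p, at -0.03, turned to 0.59 with library totals (0.56 with the block), 0.17 with rows per precursor, 0.12 in libraries 2 and 4 alone, 0.087 with RLE scaling and with DESeq2, 0.053 without a filter, 0.051 with the GC offset, 0.026 with that offset and the block, and 0.021 with TMM taken without the most abundant miRNAs, and ran from -0.15 to 0.14 when 1 library was left out. Under the sign-flip test, the differences of 0.969 percentage points in the share and of 1.10 (b-5p/a-5p), 1.40 (d-5p/c-5p) and -0.93 (c-5p/c-3p) in log2 ratios had an exact p of 0.125, the smallest possible. The b-5p/a-5p difference moved to 1.18 in libraries 1 and 3 and 1.02 in libraries 2 and 4. The d-5p/d-3p difference of -0.96 was -0.37 with 5 added to counts, and that of b-5p over its summed 3p strands 0.42. The d-5p/b-5p difference of 0.01 was -0.10 in libraries 2 and 4 and ran from -0.079 to 0.11 when 1 library was left out, and the b-5p over 3p difference, 0.14, was -0.41 in libraries 2 and 4 and ran from -0.057 to 0.32. With 1 library left out, the share difference ran from 0.928 to 1.05, b-5p/a-5p from 1.07 to 1.14, d-5p/c-5p from 1.27 to 1.51, c-5p/a-5p from -0.40 to -0.11, c-5p/c-3p from -1.08 to -0.78 and d-5p/d-3p from -1.34 to -0.34, and none of these exact tests can reach 0.05. The splits by library number, the block with library totals and the further ratios were chosen after seeing the data, and the cause of these shifts was not tested. Depth limits miR-181d-3p, miR-181b-1-3p and miR-181b-2-3p, which had fewer than 10 counts in some libraries.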
